A study of Drosophila melanogaster with 2 samples.

Results

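The Toll and Imd pathway genes examined here are 10 genes of Drosophila melanogaster chosen by name: Toll (Tl), spatzle (spz), tube (tub), pelle (pll), Myd88, cactus (cact), dorsal (dl), Dorsal-related immunity factor (Dif), Relish (Rel) and immune deficiency (imd). They are 10 of the 13834 protein-coding genes considered. Their promoters were examined for binding of MESR4, a protein tagged at its carboxyl end with green fluorescent protein (GFP), by chromatin immunoprecipitation and sequencing (ChIP-seq). The samples were whole embryos of a stable MESR4-GFP transgenic line, of both sexes, collected between 0 and 24 h of development, in 1 group of 2 biological replicates numbered 1 and 3. Sonicated chromatin of 200 to 800 bp was used. Both replicates share the transgenic line, so there is no untagged or second genotype to compare with, and a collection over the whole of embryogenesis mixes all embryonic tissues and stages. The labels do not give the promoter that drives the fusion protein.

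The data are lists of peak summits, the positions of highest enrichment, in coordinates of the dm6 genome build. The authors deposited a list of 30000 peaks and background regions for each replicate, a list of 30000 for both replicates together, and a list of 6415 summits kept by a limit on their irreproducible discovery rate (IDR), a measure of how well peak ranks match between replicates. The kept summits are called thresholded here. Each summit carries the authors' signal value, an enrichment whose scale differs from list to list. Values are therefore compared within a list, and different lists by rank, with rank 1 the highest signal. The thresholded summits ran in signal between 176.1 and 3171, with a median of 378.7, and were the 6415 highest of the list of both replicates. For the number of reads, no value is given in the sources used here. Depth behind a signal is therefore unknown, and no counting error can be attached to it. Any thresholded summit at most 500 bp from an annotated transcription start site (TSS) of a gene gave that gene a promoter peak, and the strongest one gave its signal.

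Both pathways carry a signal from outside the cell to transcription factors of the NF-κB family. In the Toll pathway a protease cascade cleaves the ligand Spatzle, which binds the receptor Toll; the adaptors Myd88 and Tube and the kinase Pelle then bring about the loss of the inhibitor Cactus, and Dorsal or Dif enters the nucleus. Dorsal and the components upstream of it are provided maternally for the early embryo, where graded nuclear Dorsal sets the dorsoventral axis. The same pathway, with Dif as its main factor in adults, responds to fungi and Gram-positive bacteria. The Imd pathway answers Gram-negative bacteria through peptidoglycan receptors, the adaptor Imd, a caspase and a kinase complex, and ends in the cleavage of Relish.

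MESR4 promoter peaks were present at 6 of the 10 genes: tub, pll, Myd88, cact, Rel and imd. None was present at Tl, spz, dl or Dif. The share among all protein-coding genes was 42.6%, or 5889 of 13834 genes, so a count of 6 in 10 lies near the genome-wide level. By role, the ligand and the receptor had no peak, all 4 adaptors and kinases (Myd88, tub, pll and imd) had 1, the inhibitor cact had 1, and 1 of the 3 NF-κB family factors, Rel, had 1. These role groups were formed with the calls known and were not tested. Among the 7 genes of the maternal dorsoventral system (Tl, spz, tub, pll, Myd88, cact and dl) 4 had a promoter peak, and among the 3 that act in immunity alone (Dif, Rel and imd) 2 had 1. The summit counted for pll lay nearer to a TSS of its neighbour TfIIA-L. With each summit given to the nearest protein-coding TSS alone, pll had no peak and the maternal count was 3. A difference between these groups cannot be read from 7 and 3 genes.

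The promoters themselves are shown so that the core promoter elements counted below can be read in place. Each line gives 150 bases of the RefSeq release 6 genome (dm6), 5′ to 3′ on the gene's strand, of which the first 120 lie before the TSS and the remaining 30 start at it. Capitals mark matches to 7 motifs searched on both strands: DRE with the letters TATCGATA, the core of Motif 1 with GGTCACACT, the E-box with CAGCTG, the GAGA element with GAGAG, the TATA box with TATAAA, the initiator with TCAGT and the κB site with GGGNNNNCC. The members with a peak are tub (chr3R:4387622-4387771, plus strand), pll (chr3R:27253153-27253302, minus strand), cact (chr2L:16325596-16325745, minus strand, at the TSS nearest to its summit) and Rel (chr3R:9047948-9048097, minus strand). The members without a peak are Tl (chr3R:26798921-26799070, plus strand), spz (chr3R:27070041-27070190, minus strand), dl (chr2L:17450335-17450484, minus strand) and Dif (chr2L:17428170-17428319, minus strand). In tub the capitals mark overlapping κB matches and the Motif 1 core, whose last letters overlap an initiator match on the opposite strand. In cact they mark TATA box matches. In Tl, spz and Dif they mark initiators and GAGA elements, with an E-box in Dif as well. In dl they mark an initiator, and its GAGA element begins 117 bp downstream of the TSS, beyond the printed line. No motif was found in the printed bases of pll or Rel.
tub: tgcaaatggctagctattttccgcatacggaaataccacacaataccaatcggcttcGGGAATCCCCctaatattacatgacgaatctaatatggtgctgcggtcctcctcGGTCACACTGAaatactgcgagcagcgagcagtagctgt
pll: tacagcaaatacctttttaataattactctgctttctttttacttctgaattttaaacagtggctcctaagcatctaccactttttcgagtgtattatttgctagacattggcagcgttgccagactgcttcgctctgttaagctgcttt
cact: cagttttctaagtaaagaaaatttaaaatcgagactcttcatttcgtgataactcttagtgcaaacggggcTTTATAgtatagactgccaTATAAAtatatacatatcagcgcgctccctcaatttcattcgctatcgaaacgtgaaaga
Rel: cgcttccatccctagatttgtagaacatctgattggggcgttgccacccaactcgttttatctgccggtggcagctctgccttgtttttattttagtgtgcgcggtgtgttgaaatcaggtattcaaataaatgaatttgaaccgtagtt
Tl: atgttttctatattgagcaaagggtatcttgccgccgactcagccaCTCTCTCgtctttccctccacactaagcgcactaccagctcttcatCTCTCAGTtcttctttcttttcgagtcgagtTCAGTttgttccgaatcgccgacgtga
spz: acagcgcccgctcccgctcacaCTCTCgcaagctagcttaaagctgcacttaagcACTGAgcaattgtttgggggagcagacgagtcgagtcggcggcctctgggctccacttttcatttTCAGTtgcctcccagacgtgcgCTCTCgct
dl: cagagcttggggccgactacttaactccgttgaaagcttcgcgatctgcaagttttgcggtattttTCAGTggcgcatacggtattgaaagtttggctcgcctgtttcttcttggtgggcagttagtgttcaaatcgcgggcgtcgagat
Dif: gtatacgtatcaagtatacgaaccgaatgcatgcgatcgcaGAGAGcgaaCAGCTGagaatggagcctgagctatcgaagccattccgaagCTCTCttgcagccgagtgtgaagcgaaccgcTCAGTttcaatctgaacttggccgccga

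Motifs were counted in a window of 300 bases around the TSS of each gene's canonical transcript, 150 before it and 150 from it. An initiator and a GAGA element together were found at all 4 members without a peak and at 1 of the 6 with a peak, tub. The other start site of Myd88, 334 bp into the gene, also held both, though its canonical window did not. Among all 13834 promoters 17.2% held both, 11.8% of those with a promoter peak and 21.2% of those without. An initiator match on the gene's own strand beginning within 5 bp of the annotated TSS was found at Tl, spz and Dif, at no member with a peak, and at 11.4% of all promoters (5.43% with a peak, 15.8% without). The match began 3 bp downstream of the TSS in Tl, at the TSS in spz and 2 bp downstream in Dif. In dl the canonical window held its initiator 54 bp upstream, and a second start site, 4797 bp into the gene, had 1 beginning 2 bp upstream. These 2 counts were chosen after the windows had been seen.

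The Motif 1 core, DRE and the E-box were more frequent at promoters with a peak across the genome, and each was found at 1 or more start sites of the members. The Motif 1 core stood at 12.0% of promoters with a peak and 0.806% of those without (5.56% of all), and tub had it, beginning 9 bp upstream of its TSS. DRE stood at 16.4% of promoters with a peak and 2.10% of those without (8.19% of all). These shares are of canonical windows, and no canonical window of a member held DRE. Among all start sites of the members it was found once, 18 bp upstream of the internal imd start site nearest the imd summit. An E-box stood at 24.3% of promoters with a peak and 13.8% of those without (18.3% of all), and among canonical windows of the members it was found in Myd88, which has a peak, and Dif, which has none. Other start sites of cact and Rel also held 1. The canonical windows of pll and Rel held none of the 7 motifs. A κB site, the kind of sequence that Dorsal, Dif and Relish bind, was found at the canonical start site of tub alone, 63 bp upstream, against 13.9% of all promoters (12.9% with a peak, 14.7% without). TATA boxes stood at 39.1% of all promoters, initiators at 52.6% and GAGA elements at 30.7%, so single matches of these are common. With and without a peak the shares were 37.4% and 40.3% for TATA boxes and 43.7% and 59.2% for initiators. For GAGA elements they were 25.5% with a peak and 34.55% without. Guanine and cytosine made up between 37.0% (cact) and 49.3% (Myd88) of the canonical windows of members with a peak, and between 46.0% (Dif) and 55.7% (spz) of those without. The medians over all genes were 39.3% with a peak and 42.7% without.

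Spatzle and Toll, the extracellular ligand and its receptor, had only summits below the threshold. The spz gene (FBgn0003495, 3R, 27064990 to 27070070, minus strand) has 1 TSS shared by 8 transcripts. In the list of both replicates its summit lay 14 bp downstream of that TSS in the 5′ UTR, at signal 44.5 and rank 19763. Replicate 1 had no summit within 500 bp and replicate 3 had 1 at rank 8025, 69 bp downstream, so the spz summit rested on replicate 3. The nearest thresholded summit was 42025 bp away.

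The Tl gene (FBgn0262473, 3R, 26799041 to 26842403, plus strand) came closer to the threshold. Its summit lay 47 bp downstream of its single TSS, at signal 112.6 and rank 8806 in the list of both replicates, rank 10674 in replicate 1 and rank 6707 in replicate 3. The 3 lists placed it within 2 bp of each other. In replicate 3 it fell just beyond rank 6415, the length of the thresholded list. Of the 6 Tl summits in the list of both replicates none was thresholded, and the nearest thresholded summit lay 67720 bp away. Tl is the longest of the 10 genes, at 43363 bp.

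Tube and Pelle, an adaptor and the kinase of the Toll pathway, held the strongest promoter peaks of the group. Tube, the adaptor that links Myd88 to Pelle, led the 10 genes. The tub gene (FBgn0003882, 3R, 4387742 to 4389813, plus strand) had its summit 55 bp downstream of its single TSS, in the 5′ UTR, at signal 715.4 and rank 1030. Its rank was 1209 in replicate 1 and 773 in replicate 3, with summits 5 and 7 bp from that of the list of both replicates. The tub signal was above that of 77.8% of the genes with a promoter peak, whose median was 467.9. The 30 bases around the summit (chr3R:4387782-4387811, plus strand) are shown because a run of overlapping GAGA elements, in capitals, lies at the summit itself:
tub summit: aaaaacataGAGAGAGaagatagatgcaaa

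Pelle is the kinase of the complex. The pll gene (FBgn0010441, 3R, 27251131 to 27253182, minus strand) had a peak at signal 595.4 and rank 1582, above 66.1% of the genes with a promoter peak. It ranked 1262 in replicate 1 and 2932 in replicate 3. The summit lay 409 bp upstream of the single pll TSS and 161 bp from a TSS of TfIIA-L, which encodes a subunit of the general transcription factor TFIIA and is transcribed away from pll from a point 248 bp upstream. It fell in the 5′ UTR of TfIIA-L. The same summit counted for both genes, and at pll it no longer counted when each summit was given to the nearest protein-coding TSS alone or when the window was 250 bp. Among all genes with a promoter peak 9.05% had a summit more than 350 bp from their own nearest TSS. A second thresholded summit at this locus, with signal 180.5 and rank 6285, lay still farther from pll, 611 bp upstream.

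Myd88 encodes the adaptor that binds the receptor. The gene (FBgn0033402, 2R, 9302823 to 9308722, minus strand) has 2 start sites 334 bp apart. Its summit lay 86 bp downstream of the first, in the 5′ UTR, at signal 326.6 and rank 3815, above 25.9% of the genes with a promoter peak. It ranked 3485 in replicate 1 and 4816 in replicate 3. The summit of replicate 1 was 4 bp from that of both replicates together, whereas the nearest of replicate 3 was 163 bp away, on the other side of the TSS, 77 bp upstream. The peak regions overlapped in both replicates. Weaker summits at ranks 7595 and 12554 lay in the Myd88 3′ UTR.

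Cactus, the inhibitor that holds Dorsal and Dif in the cytoplasm, had a weaker peak spread over several start sites. The cact gene (FBgn0000250, 2L, 16313036 to 16326207, minus strand) has 4 TSSs, the last 787 bp downstream of the first. Its strongest summit was at signal 267.8 and rank 4607, 102 bp downstream of the start site that lies 582 bp into the gene, and above 15.4% of the genes with a promoter peak. At −103 bp, the same summit lay upstream of the canonical start site, which is 787 bp into the gene. A second thresholded summit between the start sites had signal 245.6 and rank 4972. The replicates differed in which was stronger: replicate 1 had its strongest summit at rank 4355 beside the second, and replicate 3 its strongest at rank 3339 near the start site 106 bp into the gene, with 1 at rank 3827 that lay 28 bp from the first. A peak was thus present in both replicates, and its nearest start site differed between the lists. The locus held 15 summits in the list of both replicates, the most of the 10 genes, of which 3 were thresholded; the third of these, at rank 4818, lay 155 bp from the TSS of CG4278.

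The 3 NF-κB family factors differed. Relish, the factor of the Imd pathway, had a promoter peak, and Dorsal and Dif had none. The Rel gene (FBgn0014018, 3R, 9044183 to 9047977, minus strand) has 4 TSSs, and its summit lay 33 bp downstream of the second, in the 5′ UTR, at signal 260.0 and rank 4728. This was above 14.0% of the genes with a promoter peak, the lowest place among the 6. The same summit was found 10 bp away in replicate 1, at rank 5276, and 11 bp away in replicate 3, at rank 3818. In replicate 1 a second Rel summit, 211 bp downstream of the last start site, ranked higher at 4869, and it matched a thresholded summit in the coding exon at signal 206.4 and rank 5704. The nearest summit of replicate 3 to it was 158 bp away, at rank 10693. The divergent promoter of Mst85C and Nmdmc, whose start sites lie 668 and 674 bp upstream of Rel, had a stronger summit at signal 456.6 and rank 2501, 703 bp upstream of the nearest Rel start site and 29 bp from that of Nmdmc.

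The dl and Dif genes lie side by side on the minus strand of 2L, dl at 17436830 to 17450364 (FBgn0260632) and Dif at 17413248 to 17433161 (FBgn0011274). Dorsal is the factor of the dorsoventral axis. Its only summit, 39 bp downstream of the canonical TSS, had signal 59.5 and rank 14515, with rank 12755 at the same base in replicate 1 and no summit within 500 bp in replicate 3. The other 2 start sites of dl had no summit within 500 bp in any list. The Dif summit, 16 bp upstream of its canonical TSS, had signal 77.2 and rank 11613, with ranks 14160 in replicate 1 and 9591 in replicate 3, where the strongest lay at the other start site. Neither factor was near the threshold. The single thresholded summit of the pair stood in an intron of Dif, 1926 bp upstream of the canonical TSS, at signal 195.6 and rank 5930. It ranked 5181 in replicate 1, 17 bp away, but its nearest summit in replicate 3 was at rank 21124, so its place in the thresholded list went with a high rank in replicate 1 alone.

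The adaptor of the Imd pathway, Imd, which carries a death domain, had the third strongest peak of the 10. The imd gene (FBgn0013983, 2R, 18409796 to 18413599, minus strand) has 2 start sites 2067 bp apart. Its summit lay 151 bp downstream of the internal one, in a coding exon, at signal 486.1 and rank 2254, above 52.8% of the genes with a promoter peak. It ranked 1948 in replicate 1 and 1970 in replicate 3. The first imd TSS had a weaker thresholded summit 235 bp upstream, at signal 262.1 and rank 4700, which was nearer to a TSS of Dp1, 217 bp away. That summit ranked 3549 in replicate 1, and the nearest of replicate 3 was at rank 17798. Dp1, a gene for a KH-domain protein that overlaps imd on the opposite strand, had the strongest summit of this locus, at signal 771.4 and rank 820, in an intron of imd and 92 bp from a Dp1 TSS.

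**Figure D1:**
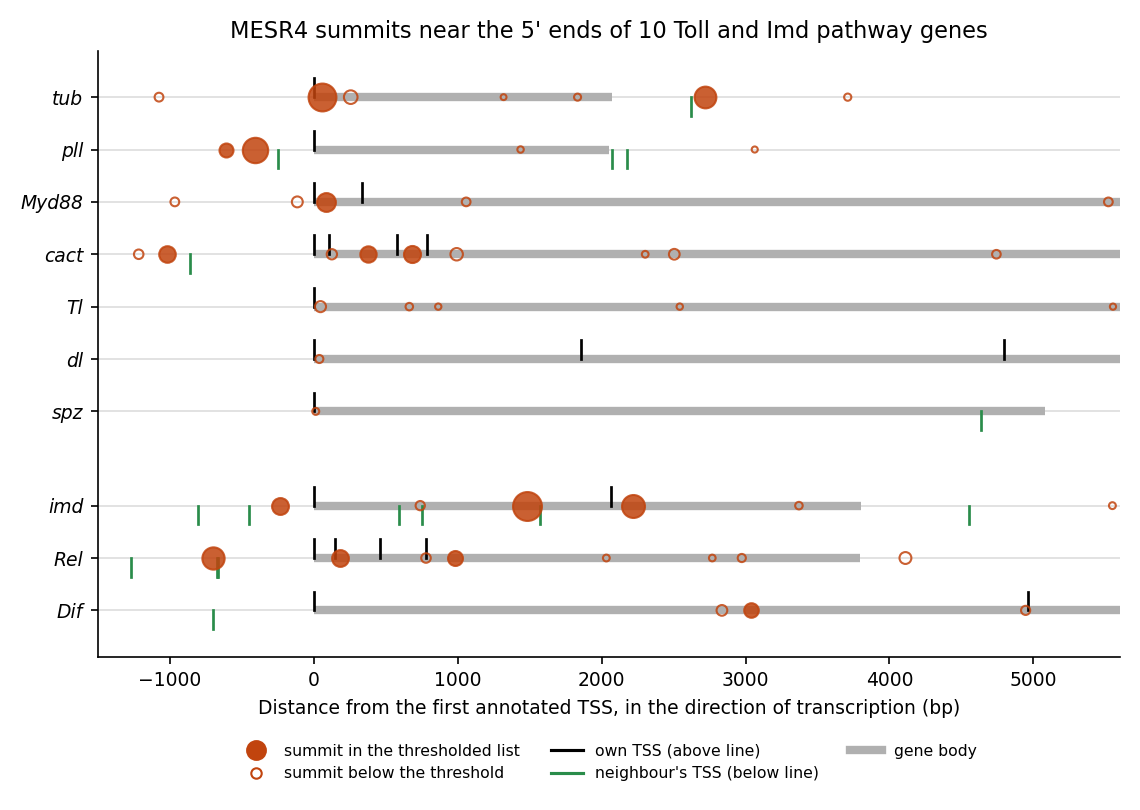
Summits of the list of both replicates (circles, area in proportion to the authors' signal; filled where thresholded) by distance in bp from each gene's first annotated TSS, with the gene's own start sites above the line and those of neighbouring protein-coding genes below it. Filled circles stand within 500 bp of an own start site in tub, pll, Myd88, cact, imd and Rel, and the filled circle of Dif lies 1926 bp from its nearest start site.

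Within the 6 genes with a peak, signals ran between 260.0 and 715.4 with a median of 406.4, against 467.9 over all genes with a promoter peak. The 4 maternal dorsoventral genes had signals of 715.4 (tub), 595.4 (pll), 326.6 (Myd88) and 267.8 (cact), with a median of 461.0, and the 2 immune-only genes had 486.1 (imd) and 260.0 (Rel), with a median of 373.1. The ranges overlap, with imd between pll and Myd88 and Rel just under cact. The ranks placed tub and pll first in replicate 1, at 1209 and 1262, and tub and imd first in replicate 3, at 773 and 1970. All 6 stood within the first 6415 ranks of each replicate, and none of the other 4 did so in either. The order of Myd88, cact and Rel was not stable: it was Myd88, cact, Rel in replicate 1 and cact, Rel, Myd88 in replicate 3.

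**Figure D2:**
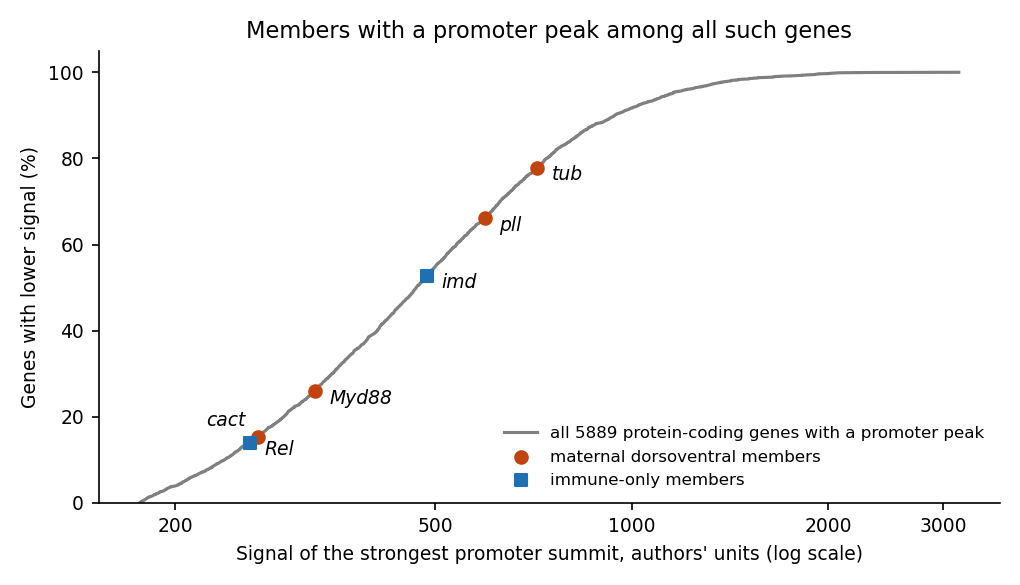
Signal of the strongest promoter summit (log axis, authors' units) against the percentage of the 5889 protein-coding genes with a promoter peak that had a lower signal, with 4 maternal dorsoventral members as circles and 2 immune-only members as squares. The members run from 14.0% (Rel) to 77.8% (tub), and 3 of the 6 lie below 30% of the curve.

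**Figure D3:**
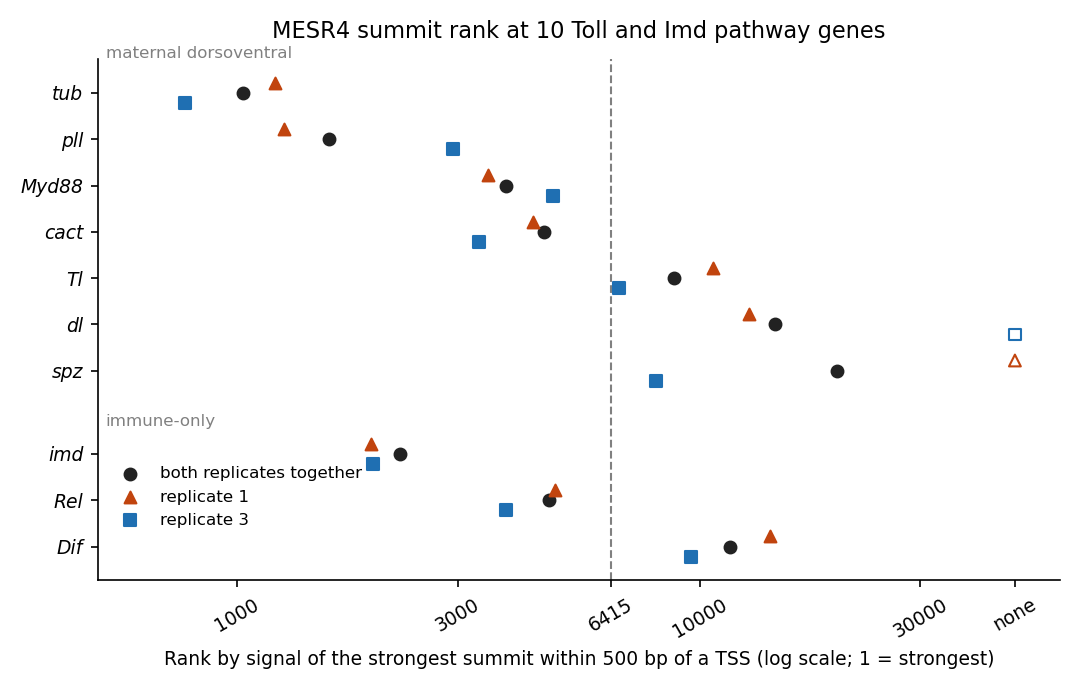
Rank of the strongest summit within 500 bp of a TSS for the 10 genes in the list of both replicates (circles), replicate 1 (triangles) and replicate 3 (squares), on a log axis with the strongest at the left; the dashed line marks rank 6415 and open symbols mark no summit. The 6 genes with a promoter peak lie left of the line in all 3 lists and Tl, dl, spz and Dif lie right of it.

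All 10 genes had some summit within 500 bp of a TSS in the list of both replicates, against 62.5% of protein-coding genes. That list includes background regions, so a summit below the threshold may be background. Of the 7945 genes with no promoter peak, 2757 (34.7%) had such a summit. Among these 2757 the summit of Tl ranked above 76.0%, that of Dif above 57.1%, that of dl above 43.1% and that of spz above 23.9%. The values lie on both sides of the middle, so the 4 genes without a peak were not a set just short of the threshold. Of these 4 genes, Tl and spz have 1 TSS, dl 3 and Dif 2. The genes with the strongest peaks, tub and pll, have 1 TSS each, though the pll summit lay nearer to TfIIA-L. A relation between the number of start sites and the peaks of the members was not tested. Across the genome 38.0% of genes with 1 TSS and 55.0% of genes with more had a promoter peak.

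The direction of the offset in 5 of the 6 genes with a peak was downstream of the nearest own TSS, and pll was the exception. The offsets downstream were 33 bp in Rel, 55 bp in tub, 86 bp in Myd88, 102 bp in cact and 151 bp in imd. From the canonical cact TSS the same summit lay upstream, at −103 bp, so its side depends on the start site used. Across all genes with a promoter peak 65.6% had their summit downstream, with a median offset of 62 bp. In the replicates the side of the nearest own TSS was kept in both for tub, Rel, imd and pll, and not for Myd88 or cact. For cact the nearest start site itself differed between the replicates.

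The wider pathways were described with 9 lists of 91 further genes. Of these, 26 (28.6%) had a promoter peak, against 42.6% of all protein-coding genes, and the counts differed from list to list. The lists are grouped by place in the pathway, not strictly by place in the cell, and none was tested.

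The list of further regulators of Toll signalling, most of them acting inside the cell, had a peak in 8 of 9 genes, with signals between 213.0 and 1562. The strongest of all 101 genes was krz, which encodes a β-arrestin, at signal 1562 and rank 60, with ranks 71 in replicate 1 and 64 in replicate 3. Within this list it was followed by mop, which encodes a tyrosine phosphatase family protein of endosomes (928.6, rank 484), Deaf1, a transcription factor gene (671.4, rank 1202), and lwr, which encodes the SUMO-conjugating enzyme (640.7, rank 1339). The gene without a peak was wntD, which encodes a secreted inhibitor and had no summit in any list. At Cactin the summit was nearer to the TSS of Pp4-19C than to its own.

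The Imd cascade had a peak in 11 of 13 genes, with signals between 244.0 and 875.3. The strongest were Diap2, a ubiquitin ligase gene (875.3, rank 571), Tak1, which encodes the kinase that activates the IκB kinase complex (652.9, rank 1282), Dredd, which encodes the caspase that cleaves Imd and Relish (607.8, rank 1513), and eff, a ubiquitin-conjugating enzyme gene (601.0, rank 1548). The Dredd summit lay 493 bp from its own TSS and nearer to that of su(sable), and the Fadd summit was nearer to CG45099 and CG6015. The Diap2 summit lay 54 bp from its nearest own TSS and equally near to a TSS of bug. The exceptions were the receptor gene PGRP-LC, which had no summit in the list of both replicates, and Tab2, at rank 6861.

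The list of negative regulators of Imd signalling and further peptidoglycan recognition protein genes was divided, with 5 of 13. The 5 were trbd (971.8, rank 416), scny (859.0, rank 597) and CYLD (522.4, rank 1991), which encode deubiquitinating enzymes, POSH (728.6, rank 979), which encodes a ubiquitin ligase, and casp (706.4, rank 1070), which encodes a ubiquitin-binding protein. The POSH summit lay at −415 bp from its own TSS and was nearer to a TSS of Ns2, 139 bp away. A weaker thresholded summit, at signal 266.5 and rank 4632, lay 161 bp upstream of POSH. With each summit given to the nearest protein-coding TSS alone, POSH kept a peak. None of the 6 peptidoglycan recognition protein genes of this list had a peak, and 4 of them, PGRP-LA, PGRP-SC1a, PGRP-SC1b and PGRP-SC2, had no summit in the list of both replicates.

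The maternal protease cascade and its ventral cue had a peak in 1 of 8 genes, sll, which encodes a transporter of the sulphate donor into the Golgi (382.7, rank 3172). Recognition proteins and proteases of the immune Toll pathway had none in 11. Of the 7 other Toll receptor genes listed, 1 had a peak, Toll-7 (484.5, rank 2267), and none of the 5 other Spatzle genes listed did. No peak was found at the 11 zygotic targets of Dorsal, among them twi, sna and dpp, or at the 14 antimicrobial peptide genes, of which 13 had no summit at all in the list of both replicates and the other, AttA, was at rank 23935. The embryos were not described as infected, so these 14 genes were not examined here in an induced state.

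**Figure D4:**
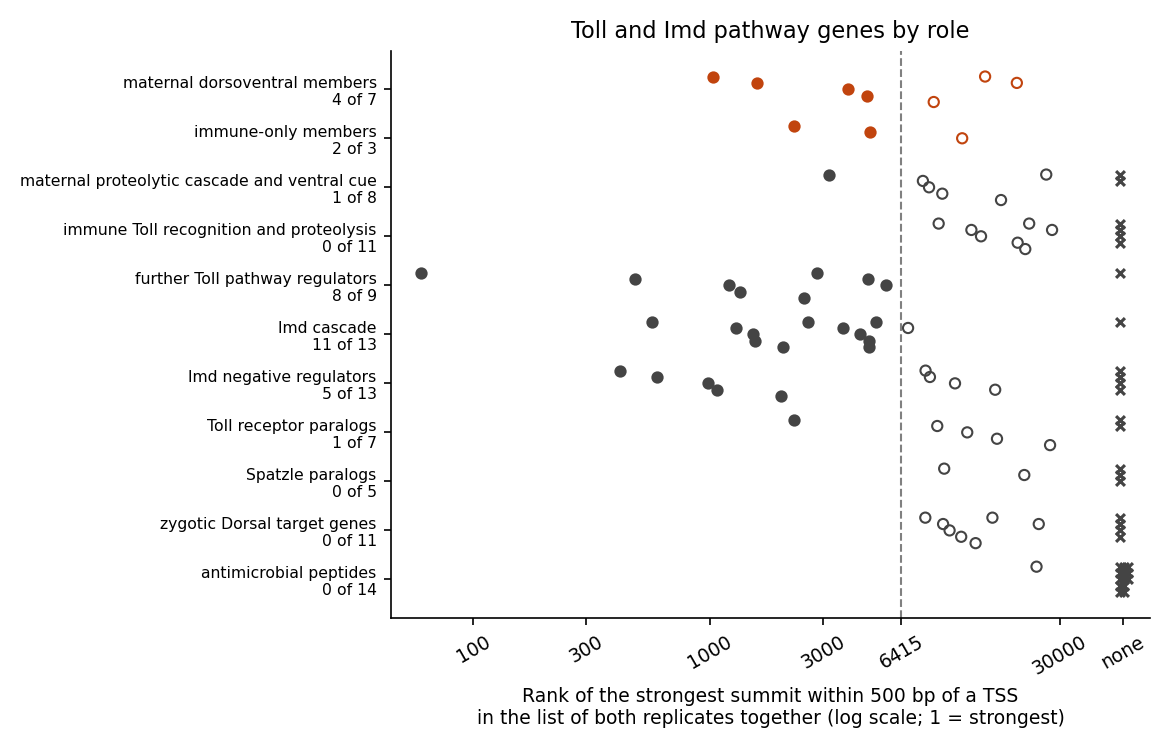
Rank in the list of both replicates (log axis, strongest at the left) of the strongest summit within 500 bp of a TSS for the 10 members (coloured) and 91 further pathway genes by role; filled points are promoter peaks, open points lie beyond rank 6415 (dashed line) and crosses mark genes with no summit. Filled points make up 8 of 9 further Toll pathway regulators and 11 of 13 Imd cascade genes, and none of the 14 antimicrobial peptide genes.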

How the data were processed

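Samples were grouped by their labels into 1 group of MESR4-GFP embryos with 2 biological replicates. Their free text describes input controls, but the antibody label names MESR4 and the deposited listing shows each called against 1 other, shared control alignment. They were treated as immunoprecipitates. Per that listing, peaks and background regions were called by the authors in dm6 for each replicate and for both together, and a further list passed an IDR threshold. For the aligner, peak caller, threshold and read numbers, no value is given in the sources used here. The signal deposited per peak is the authors' enrichment and was used for ranks within each list. The deposited −log10 q repeats its maximum at strong peaks and was not used. The summit position was the deposited start plus the summit column, given from 1.

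Genes were those of Ensembl release 115 and sequences those of RefSeq release 6. All peak ends fitted the arm lengths, and 111 genes of the tandem histone cluster were left out. Summits were assigned with Python 3.11.15, pandas 2.3.3 and numpy 2.4.6, and the assignment was tested on simulated summits. A summit can count for several genes. Members and lists were chosen with earlier results of these data known. Named were all members, up to 4 genes with the strongest promoter peak in each list, the whole list's peak genes where 4 or fewer, and genes whose TSS was nearer to a member's summit; others named were chosen after their values were seen. With 1 group, no test was made. Alternatives changed the window, the rank limit, the replicates used, the TSS rule and the use of summits or regions.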

Additional observations from a re-analysis of the deposited data

How the results depend on the processing

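The count of members with a promoter peak was 6 under a window of 1000 bp, replicate 1 alone, replicate 3 alone, canonical TSSs alone and overlap of peak regions by 1 bp. It was 5, without pll, under a window of 250 bp and under the nearest protein-coding TSS alone. With the stronger 3208 summits alone it was 3 (tub, pll and imd), of which 2 were maternal dorsoventral and 1 immune-only, and the share of all genes was 27.4%. Leaving out a replicate gave a Myd88 offset between −77 and 90 bp, so the side of the TSS changed, and the cause was not tested. The cact offset was −180 bp with replicate 1 alone and 35 bp with replicate 3 alone. These were measured from different start sites, 582 and 106 bp into the gene. From the start site 582 bp into the gene, the strongest summit lay upstream in both replicates, at −180 and −441 bp. Without replicate 1, the rank of pll moved to 2932. Among the lists, the maternal cascade had 2 genes under a window of 1000 bp, without replicate 1 and under region overlap, the immune recognition list had 1 under a window of 1000 bp, the Imd cascade had 6 with the stronger 3208 summits, and the Dorsal targets had 1 (rho) without replicate 1. No paired analysis was possible because there is 1 group. Read depth is unknown, so the precision of a signal or rank rests on the 2 replicates, and a gene without a thresholded summit is not shown to be unbound.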
